A study of Mus musculus with 6 samples.

Results

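The Rab genes encode small GTPases that direct membrane traffic. All rows of the expression table whose gene symbol consists of Rab, a number and at most a letter and a further digit were taken, which gave 57 genes of the 37979 in the table. RNA-seq was carried out on the gastrocnemius (GAS) muscle of 3 wildtype (WT) and 3 Kvβ2 knockout (KO) mice, with 1 library per mouse. The mice were untreated males, 20 weeks of age, and the libraries carried the numbers 1, 7 and 8 in each genotype. Kvβ2, encoded by *Kcnab2*, is an auxiliary subunit of voltage-gated potassium channels. WT and KO mice came from crosses of parents that carried 1 null allele, so the deletion was not restricted to muscle, and the WT mice had no other manipulation. Whole muscle was used, so fewer cells of a type and less RNA per cell cannot be told apart.

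A Rab protein is active when bound to GTP and inactive when bound to GDP. Exchange factors load it with GTP, GTPase-activating proteins, most of them with a TBC domain, switch it off, and active Rabs recruit effectors such as tethers and motors. A lipid tail added after synthesis holds the protein in the membrane, and GDP dissociation inhibitors return it to the cytosol. Each Rab marks a set of compartments. In muscle fibers, insulin and contraction bring the glucose transporter GLUT4 to the surface through Rab proteins that are held back by the GTPase-activating proteins TBC1D1 and TBC1D4.

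Several Rabs exist as close paralogs, and the paralogs of 3 pairs lay on opposite sides of WT in KO muscle, so the coding sequence of the nucleotide-binding P-loop is shown for 4 pairs. The 60 bases were read 5′ to 3′ from the reference coding sequence on GRCm38 (GENCODE vM21), and capitals mark the bases that differ within the pair. *Rab1* is the symbol in the table for *Rab1a*.
Rab1: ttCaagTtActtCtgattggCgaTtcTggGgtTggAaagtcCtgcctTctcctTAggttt
Rab1b: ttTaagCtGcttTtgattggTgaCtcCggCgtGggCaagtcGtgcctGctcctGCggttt
Rab5a: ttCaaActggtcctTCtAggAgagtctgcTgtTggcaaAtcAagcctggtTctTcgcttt
Rab5c: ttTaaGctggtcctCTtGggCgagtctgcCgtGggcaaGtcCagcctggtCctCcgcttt
Rab11a: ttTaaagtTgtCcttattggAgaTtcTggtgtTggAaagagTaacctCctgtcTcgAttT
Rab11b: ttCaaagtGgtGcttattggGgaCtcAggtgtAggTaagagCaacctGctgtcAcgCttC
Rab4a: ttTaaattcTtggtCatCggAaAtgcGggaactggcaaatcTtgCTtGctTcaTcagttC
Rab4b: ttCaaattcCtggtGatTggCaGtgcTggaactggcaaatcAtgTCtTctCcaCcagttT

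In these windows *Rab1* and *Rab1b* differed at 14 of 60 bases, *Rab5a* and *Rab5c* at 12, *Rab11a* and *Rab11b* at 13, and *Rab4a* and *Rab4b* at 14. The encoded residues were the same at 20 of 20 positions in the first 3 pairs and at 19 of 20 in the *Rab4* pair. Over the whole coding sequence the identity was 76.1%, 73.5%, 75.0% and 73.1% in the same order, and over the protein 90.7%, 87.5%, 89.9% and 84.9%. The longest run of shared bases was 38, 22, 14 and 23. In each pair the b or c paralog had the higher GC content in its coding sequence. It was 53.6% in *Rab1b* against 43.7% in *Rab1*, 55.3% in *Rab5c* against 42.3% in *Rab5a*, 54.0% in *Rab11b* against 43.2% in *Rab11a*, and 56.1% in *Rab4b* against 49.8% in *Rab4a*. The genes lie apart in the genome (GRCm38). *Rab11b* (ENSMUSG00000077450) lies on the minus strand of chromosome 17, from 33742484 to 33760530, and *Rab11a* (ENSMUSG00000004771) on the minus strand of chromosome 9, from 64715299 to 64737758. *Rab4b* (ENSMUSG00000053291) lies on the minus strand of chromosome 7, from 27168424 to 27178896, and *Rab3a* (ENSMUSG00000031840) on the plus strand of chromosome 8, from 70754679 to 70758677.

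The deposited values are FPKM, fragment numbers corrected for transcript length and library size, so levels of different genes can be compared per length. The depth estimated from the steps of low FPKM values was 14910000 to 19330000 fragments in KO and 20480000 to 21480000 in WT libraries, and the 3 KO libraries were all shallower than the 3 WT libraries. A fragment on a transcript of 1 kilobase was worth 0.0466 to 0.0671 FPKM. *Kcnab2* ranged from 0.1 to 0.233 FPKM in the WT libraries, and lay at 0.0151 FPKM in KO replicate 7, while the other KO libraries list it at 0. The 8 muscle fiber markers were all above 0, with sums of 40660 to 60010 FPKM in WT and 55420 to 65540 FPKM in KO muscle. The summed adipocyte markers (5 of 5 in the table, none listed at 0) were 7.35 to 34.8 FPKM in WT and 44.3 to 167.5 FPKM in KO muscle, highest in KO replicate 7. The summed red cell markers (3 of 5 in the table, none listed at 0) were 64.9 to 98.2 FPKM in WT and 112.5 to 228.4 FPKM in KO muscle. The part of these markers in the Rab values was not tested.

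The family was dominated by a few members. Of the 57 genes, 14 reached 20 FPKM on average, 24 lay from 1 to 20 FPKM and 19 lay below 1 FPKM. The 5 highest were *Rab12*, *Rab7*, *Rab10*, *Rab2a* and *Rab11a*, which together made up 52.9% to 55.3% of the family's FPKM in WT and 48.0% to 51.7% in KO muscle. The FPKM summed over the family was 1045, 1124 and 1107 in WT replicates 1, 7 and 8, and 1017, 869.1 and 997.2 in KO replicates 1, 7 and 8. The genotypes did not overlap in this sum, and KO replicate 7 was the lowest library. Values for single libraries are given throughout in the order of replicates 1, 7 and 8. The test covered the 41 members whose average reached 0.5 FPKM. The lowest of these was *Rab27b* with a mean of 0.506 FPKM, and the highest left out was *Rab27a* with 0.330 FPKM.

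**Figure D1:**
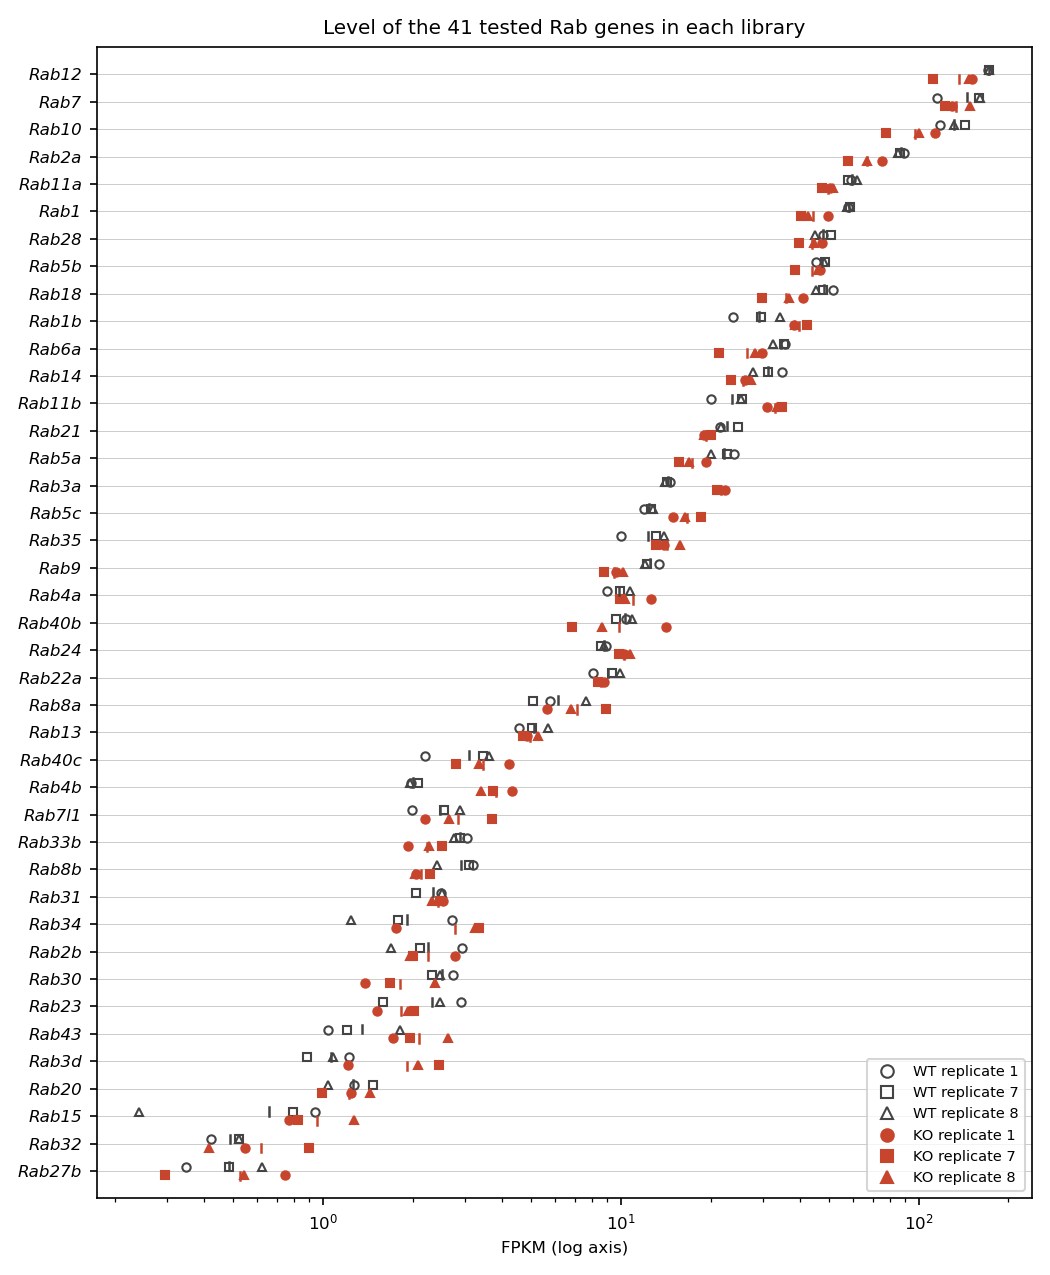
FPKM (log axis) of the 41 tested Rab genes in each of the 3 WT (open symbols) and 3 KO libraries (filled symbols), ordered by mean, where vertical ticks mark the group means. *Rab12*, from 111.9 to 172.8 FPKM, lies at the top and *Rab27b*, from 0.295 to 0.744 FPKM, at the bottom.

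No Rab gene passed the test. With limma on log2(FPKM + 0.1) and Benjamini-Hochberg adjustment over 12334 genes, 0 of the 41 tested members had an adjusted p under 0.05, against 40 genes, or 0.324%, of all tested. At an unadjusted p under 0.05, 7 members (17.1%) were higher in KO, where 15.3% of all tested genes were, and 11 members (26.8%) were lower, where 10.9% of all tested genes were. The share of higher members was near the background and the share of lower members was above it. With limma array weights, 18 members passed the adjusted threshold, along with 3147 of all genes. Without KO replicate 7, the counts of members at an unadjusted p under 0.05 were 6 higher and 9 lower. Over all tested genes, 1392 were then higher and 848 lower, against 1891 and 1339 with every library. The lower count of members fell to 6 without WT replicate 7 and to 7 without WT replicate 1. In these fits the lower count over all tested genes fell to 791 and 1061. WT and KO values did not overlap in 6 members that were higher in KO (14.6% of those tested, background 18.3%) and in 13 that were lower (31.7%, background 16.2%). The median log2 fold change, KO minus WT, was -0.04 over the members and 0.01 over all tested genes.

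The fold changes of the members followed GC content, as did those of all genes. The 7 higher members (*Rab4b*, *Rab3a*, *Rab11b*, *Rab5c*, *Rab1b*, *Rab3d*, *Rab43*) had a GC content over their transcripts of 50% to 58.4% with a median of 55.8%. The 11 lower members (*Rab1*, *Rab9*, *Rab2a*, *Rab18*, *Rab5a*, *Rab11a*, *Rab10*, *Rab6a*, *Rab8b*, *Rab12*, *Rab33b*) had 40.6% to 50.1% with a median of 44.4%. Across the 41 members, which share the 6 libraries and are not independent replicates, the Spearman correlation of log2 fold change with GC content was 0.794 (Pearson 0.789). Across all tested genes of known GC content the Spearman correlation was 0.704. Below a GC content of 46%, 12 of 13 members were lower in KO, with a median log2 fold change of -0.39 against -0.27 over all genes of this range. From 46% to 53% the median was -0.06 over 14 members and -0.03 over all genes. At 53% or more, 12 of 14 members were higher in KO, with a median of 0.44 against 0.39 over all genes.

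A correction that removed each library's smooth trend on GC content left 1 member higher, *Rab11b*, and 1 lower, *Rab12*, at an unadjusted p under 0.05. Over all 11985 genes of known GC content, 5.33% were higher and 5.4% lower after this correction, and each of these members alone is 2.44% of those tested. The Spearman correlation across the members was then 0.137. The direction turned with the correction in 7 of the 41 members, *Rab11a*, *Rab4a*, *Rab40c*, *Rab14*, *Rab28*, *Rab35* and *Rab24*. With a correction on the GC content of the coding sequence instead, chosen after the data were seen, 4 members were higher (*Rab3a*, *Rab4b*, *Rab11b*, *Rab1b*) and 2 were lower (*Rab12*, *Rab33b*). Of all 11120 genes tested under that correction, 694 were higher and 1016 lower, against these 4 and 2 of 41 members. The cause of the trend was not tested.

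**Figure D2:**
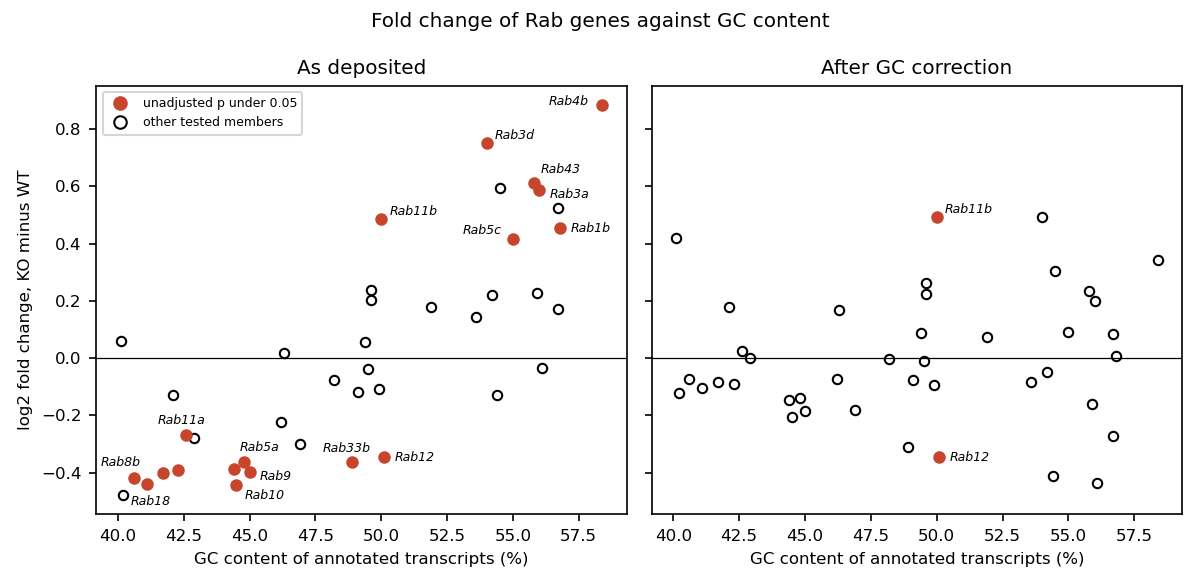
Log2 fold change (KO minus WT) of the 41 tested Rab genes against the GC content of their annotated transcripts in percent, as deposited and after the GC correction, with filled points for an unadjusted limma p under 0.05. The slope seen in the deposited values, with a Spearman correlation of 0.794, is reduced to 0.137 by the correction, and *Rab11b* and *Rab12* are the points still filled.

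The early secretory Rabs act between the endoplasmic reticulum and the Golgi. Of 11 members, 9 were tested, of which 5 were lower and 2 higher at an unadjusted p under 0.05. Over all tested genes, 10.9% were lower and 15.3% higher. The median log2 fold change of the group was -0.39 (-0.09 after the GC correction). *Rab1*, needed for traffic from the endoplasmic reticulum to the Golgi, was at 58.06, 58.86 and 57.45 FPKM in WT and 49.73, 40.27 and 42.54 FPKM in KO muscle. Its paralog *Rab1b* was at 23.84, 29.51 and 34.09 FPKM in WT and 38.26, 42.2 and 38.4 FPKM in KO muscle, so all KO libraries lay under WT for *Rab1* and above WT for *Rab1b*. The log2 fold change was -0.40 ± 0.11 (SE) for *Rab1* (limma, adjusted p = 0.0962) and 0.46 ± 0.15 for *Rab1b* (adjusted p = 0.118). After the GC correction it was -0.08 for *Rab1* and 0.01 for *Rab1b*. *Rab2a*, which also acts at this step, was at 89.15, 86.78 and 85.12 FPKM in WT and 75.53, 57.87 and 67.27 FPKM in KO muscle, without overlap (log2 fold change -0.39 ± 0.12, adjusted p = 0.112).

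*Rab18*, a Rab of the endoplasmic reticulum and lipid droplets, was at 51.6, 47.77 and 45.05 FPKM in WT and 40.76, 29.82 and 36.57 FPKM in KO muscle (log2 fold change -0.44 ± 0.14, limma, adjusted p = 0.114). *Rab6a*, which acts in transport through and from the Golgi, was at 35.47, 35.23 and 32.47 FPKM in WT and 29.74, 21.35 and 28.21 FPKM in KO muscle (-0.39 ± 0.14, adjusted p = 0.151). Neither gene had overlapping genotypes, and KO replicate 7 was the lowest library for both. *Rab33b*, a Golgi Rab linked to autophagy, was at 3.052, 2.875 and 2.757 FPKM in WT and 1.933, 2.519 and 2.266 FPKM in KO muscle (-0.36 ± 0.15, adjusted p = 0.179). *Rab43*, another Golgi Rab, was at 1.039, 1.203 and 1.819 FPKM in WT and 1.715, 1.96 and 2.62 FPKM in KO muscle, where KO replicate 1 lay under WT replicate 8 (0.61 ± 0.26, adjusted p = 0.184). *Rab30* had a log2 fold change of -0.48 ± 0.21 and overlapping genotypes, and *Rab2b* of 0.02 ± 0.24. *Rab6a* overlaps *Mrpl48* on the opposite strand, which had a log2 fold change of -0.08.
The call at an unadjusted p under 0.05 was lost for *Rab33b* on leaving out any library but KO replicate 7 (from -0.40 to -0.27), for *Rab6a* without WT replicate 1 (-0.37) or 7 (-0.37), and for *Rab43* without KO replicate 7 (0.65) or 8 (0.45) or WT replicate 1 (0.45) or 7 (0.55). The call for *Rab43* was also lost with a pseudocount of 1 (0.40), without the filter or with a filter at 1 FPKM (both 0.61), with median scaling (0.53), with quantile normalization (0.52) and with the length correction (0.54). That for *Rab33b* was lost without the filter and without genes listed at 0 (both -0.36), and that for *Rab1b* with the length correction (0.31).

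The Rabs of regulated secretion bring secretory vesicles to the plasma membrane. Of 9 members, 3 were tested, and 2 were higher in KO at an unadjusted p under 0.05, where 15.3% of all tested genes were. The summed level of the group was 16.26 to 16.86 FPKM in WT and 24.73 to 25.13 FPKM in KO muscle, almost all of it from *Rab3a*. *Rab3a*, the Rab of synaptic and other secretory vesicles, was at 14.66, 14.31 and 14.1 FPKM in WT and 22.34, 21.04 and 21.59 FPKM in KO muscle. The KO libraries lay well above the WT libraries, which differed little among themselves (14.4 ± 0.286 in WT and 21.7 ± 0.652 FPKM in KO muscle, SD, n = 3). The log2 fold change was 0.59 ± 0.10 (limma, adjusted p = 0.0667), and 0.20 after the GC correction. *Mpv17l2*, which overlaps *Rab3a* on the opposite strand, had a log2 fold change of 0.44. Whether the counting used strand is not stated in the sources used here, so fragments of these genes cannot be told apart with certainty. The summed Schwann cell markers (6 of 6 in the table, none listed at 0) were 27.8 to 104.8 FPKM in WT and 32.1 to 135.8 FPKM in KO muscle and their part in the *Rab3a* values was not tested.

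*Rab3d*, which acts on secretory granules and is known from adipocytes and exocrine cells, was at 1.223, 0.8853 and 1.078 FPKM in WT and 1.218, 2.457 and 2.078 FPKM in KO muscle. KO replicate 1 lay within the WT range, and KO replicate 7 was the highest. The summed adipocyte markers were 34.8, 7.35 and 18.9 FPKM in WT and 44.5, 167.5 and 44.3 FPKM in KO muscle. Their part in the *Rab3d* values was not tested. The log2 fold change was 0.75 ± 0.28 (limma, adjusted p = 0.155). The call at an unadjusted p was lost without KO replicate 7 (0.55) or 8 (0.67) or WT replicate 7 (0.64) or 8 (0.77). *Rab27b* had a log2 fold change of 0.06 ± 0.42. The summed mast cell markers (5 of 5 in the table, none listed at 0) were 6.65 to 9.69 FPKM in WT and 5.45 to 19.7 FPKM in KO muscle.

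The Rabs of delivery to the plasma membrane include those tied to GLUT4. All 5 members were tested, and 2 were lower and 0 higher at an unadjusted p under 0.05 by limma. The shares over all tested genes were 10.9% lower and 15.3% higher. The median log2 fold change of the 5 members was -0.28 (-0.01 after the GC correction). *Rab10*, which carries GLUT4 vesicles to the surface in adipocytes, was at 117.8, 143.1 and 131.8 FPKM in WT and 113.7, 77.57 and 100.3 FPKM in KO muscle. The genotypes did not overlap, though KO replicate 1 lay close to WT replicate 1 (log2 fold change -0.44 ± 0.16, limma, adjusted p = 0.147). *Rab14*, of the Golgi and endosomes, was at 34.71, 31.29 and 27.74 FPKM in WT and 26.19, 23.52 and 27.25 FPKM in KO muscle (-0.28 ± 0.12, adjusted p = 0.196). *Rab8a*, the GLUT4 Rab of muscle cells, was at 5.777, 5.064 and 7.65 FPKM in WT and 5.659, 8.889 and 6.826 FPKM in KO muscle, with overlap (0.20 ± 0.21, adjusted p = 0.564). *Rab8b* was at 3.182, 3.1 and 2.421 FPKM in WT and 2.056, 2.293 and 2.042 FPKM in KO muscle, without overlap (-0.42 ± 0.16, adjusted p = 0.156). *Rab13*, which is linked to GLUT4 and cell junctions, was at 4.567, 5.013 and 5.706 FPKM in WT and 4.859, 4.705 and 5.289 FPKM in KO muscle (-0.04 ± 0.13, adjusted p = 0.881). The call at an unadjusted p for *Rab10* was lost without KO replicate 7 (-0.29) or 8 (-0.47) or WT replicate 7 (-0.38) or 8 (-0.43). That of *Rab8b* was lost without KO replicate 1 (-0.40) or 8 (-0.39) or WT replicate 1 (-0.35) or 7 (-0.37). *Rab14* passed at an unadjusted p without WT replicate 8 (-0.36).

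The early endosome Rabs receive cargo taken up from the surface. Of 8 members, 7 were tested, and 1 was higher and 1 lower at an unadjusted p under 0.05, against 15.3% and 10.9% of all tested genes. Both members belong to the *Rab5* group, which drives fusion of early endosomes. *Rab5a* was at 23.99, 22.7 and 20.03 FPKM in WT and 19.25, 15.73 and 16.9 FPKM in KO muscle (log2 fold change -0.36 ± 0.12, limma, adjusted p = 0.134). *Rab5c* was at 11.92, 12.6 and 12.78 FPKM in WT and 15.01, 18.65 and 16.45 FPKM in KO muscle (0.42 ± 0.12, adjusted p = 0.0962). The genotypes did not overlap in either gene, in opposite directions. Of all tested genes, 18.3% lay higher and 16.2% lower in KO without overlap. After the GC correction the log2 fold change was -0.14 for *Rab5a* and 0.09 for *Rab5c*, and neither kept an unadjusted p under 0.05 by limma. *Rab5b*, the highest of the group, was at 45.34, 48.41 and 48.04 FPKM in WT and 46.74, 38.54 and 45.87 FPKM in KO muscle (-0.12 ± 0.11, adjusted p = 0.526). *Rab21*, which acts in integrin traffic, was at 21.59, 24.71 and 21.73 FPKM in WT and 18.95, 20.15 and 19.01 FPKM in KO muscle, without overlap (-0.22 ± 0.10, adjusted p = 0.219). *Rab22a*, *Rab31* and *Rab20* had log2 fold changes of -0.08, 0.06 and -0.04. The call at an unadjusted p for *Rab5a* was lost without KO replicate 7 (-0.30) or 8 (-0.35) or WT replicate 1 (-0.31) or 7 (-0.34), and *Rab21* passed without WT replicate 1 (-0.26).

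The recycling Rabs return cargo from endosomes to the surface. Of 7 members, 6 were tested, and 2 were higher and 1 lower at an unadjusted p under 0.05, against 15.3% and 10.9% of all tested genes. The median log2 fold change of the group was 0.35 (0.17 after the GC correction). *Rab4b*, of the fast recycling route, was at 1.98, 2.083 and 1.958 FPKM in WT and 4.312, 3.711 and 3.387 FPKM in KO muscle. Every KO library was above every WT library, and the fold change of 1.84 was the largest of the 18 members at an unadjusted p under 0.05 (log2 fold change 0.88 ± 0.14, limma, adjusted p = 0.0667). After the GC correction it was 0.34 ± 0.16, and the unadjusted limma p was 0.0727. A readthrough gene, *Gm21983*, overlaps *Rab4b* on the same strand and was not analysed here. The paralog *Rab4a* was at 8.985, 9.898 and 10.74 FPKM in WT and 12.59, 9.954 and 10.34 FPKM in KO muscle (0.15 ± 0.13, adjusted p = 0.510). A protein-coding gene, *Gm20388*, overlaps *Rab4a* on the same strand, and its part in these values was not tested.

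*Rab11b*, of the recycling endosome, was at 20.04, 25.59 and 25.4 FPKM in WT and 30.84, 34.84 and 33.45 FPKM in KO muscle. The lowest KO library exceeded the highest WT library (log2 fold change 0.49 ± 0.13, limma, adjusted p = 0.0911). *Rab11b* has a GC content of 50% over its transcripts, near the median of 50.1% over all tested genes, and its log2 fold change after the GC correction was 0.49 ± 0.12 (limma, adjusted p = 0.285). This value kept an unadjusted p under 0.05 in 6 of 6 fits that left out 1 library, from 0.39 to 0.56. The GC content of its coding sequence is higher, 54.0%, and the coding-sequence GC correction gave 0.33 (limma, unadjusted p = 0.0149). *Rab11a* was at 59.4, 57.77 and 61.9 FPKM in WT and 50.18, 47.19 and 51.43 FPKM in KO muscle, without overlap (-0.27 ± 0.10, adjusted p = 0.144). Its direction flipped to 0.03 after the GC correction, and without WT replicate 8 its unadjusted call was lost (-0.24). *Rab35* and *Rab15* had log2 fold changes of 0.22 ± 0.15 and 0.60 ± 0.46 with overlapping genotypes, and *Rab35* had -0.05 and *Rab4a* -0.08 after the GC correction.

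The Rabs of late endosomes and lysosomes lead cargo to degradation. Of 12 members, 7 were tested, and 2 were lower and 0 higher at an unadjusted p under 0.05 by limma. Among all tested genes, 10.9% were lower and 15.3% higher. *Rab12*, linked to recycling endosomes, lysosomes and autophagy, had the highest mean FPKM of the family, with 171.4, 171.8 and 172.8 FPKM in WT and 150.6, 111.9 and 147.2 FPKM in KO muscle. WT libraries were nearly equal, and KO replicate 7 was far under the other KO libraries (log2 fold change -0.34 ± 0.13, limma, adjusted p = 0.163). After the GC correction the value was -0.34 (limma, adjusted p = 0.419). An unadjusted p under 0.05 was kept in 2 of 6 corrected fits without 1 library. As deposited, *Rab12* moved to -0.21 without KO replicate 7 and lost its call at an unadjusted p without WT replicate 1 (-0.35), 7 (-0.35) or 8 (-0.34). *Rab7*, the main Rab of late endosomes, was at 115.3, 158.8 and 160.6 FPKM in WT and 129.2, 122.2 and 148.9 FPKM in KO muscle (-0.11 ± 0.16, adjusted p = 0.691). WT replicate 1 was under the KO range, so the genotypes overlapped. *Rab9*, of transport from late endosomes to the Golgi, was at 13.45, 12.22 and 12.03 FPKM in WT and 9.635, 8.793 and 10.13 FPKM in KO muscle, without overlap (-0.40 ± 0.11, adjusted p = 0.0962). *Rab24*, linked to autophagy, was at 8.911, 8.584 and 8.799 FPKM in WT and 10.24, 9.875 and 10.7 FPKM in KO muscle, without overlap (0.23 ± 0.10, adjusted p = 0.201), and its direction flipped to -0.16 after the GC correction. It passed at an unadjusted p without KO replicate 7 (0.25). *Rab24* overlaps *Prelid1* on the opposite strand, with a log2 fold change of 0.28. *Rab34*, *Rab32* and *Rab7l1* (*Rab29* in GENCODE) had log2 fold changes of 0.53, 0.24 and 0.18 with overlapping genotypes.

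Of the 5 members placed with cilia or other roles, 4 were tested and 0 passed an unadjusted p under 0.05 by limma. Among all tested genes, 15.3% passed as higher and 10.9% as lower. *Rab28*, a ciliary Rab, was at 44.9 to 50.8 FPKM in WT and 39.7 to 47.4 FPKM in KO muscle. Its log2 fold change of -0.13 turned to 0.18 after the GC correction. *Rab23*, *Rab40b* and *Rab40c* had log2 fold changes of -0.30, -0.13 and 0.17, the last turning to -0.27 after the GC correction, and their genotypes overlapped.

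**Figure D3:**
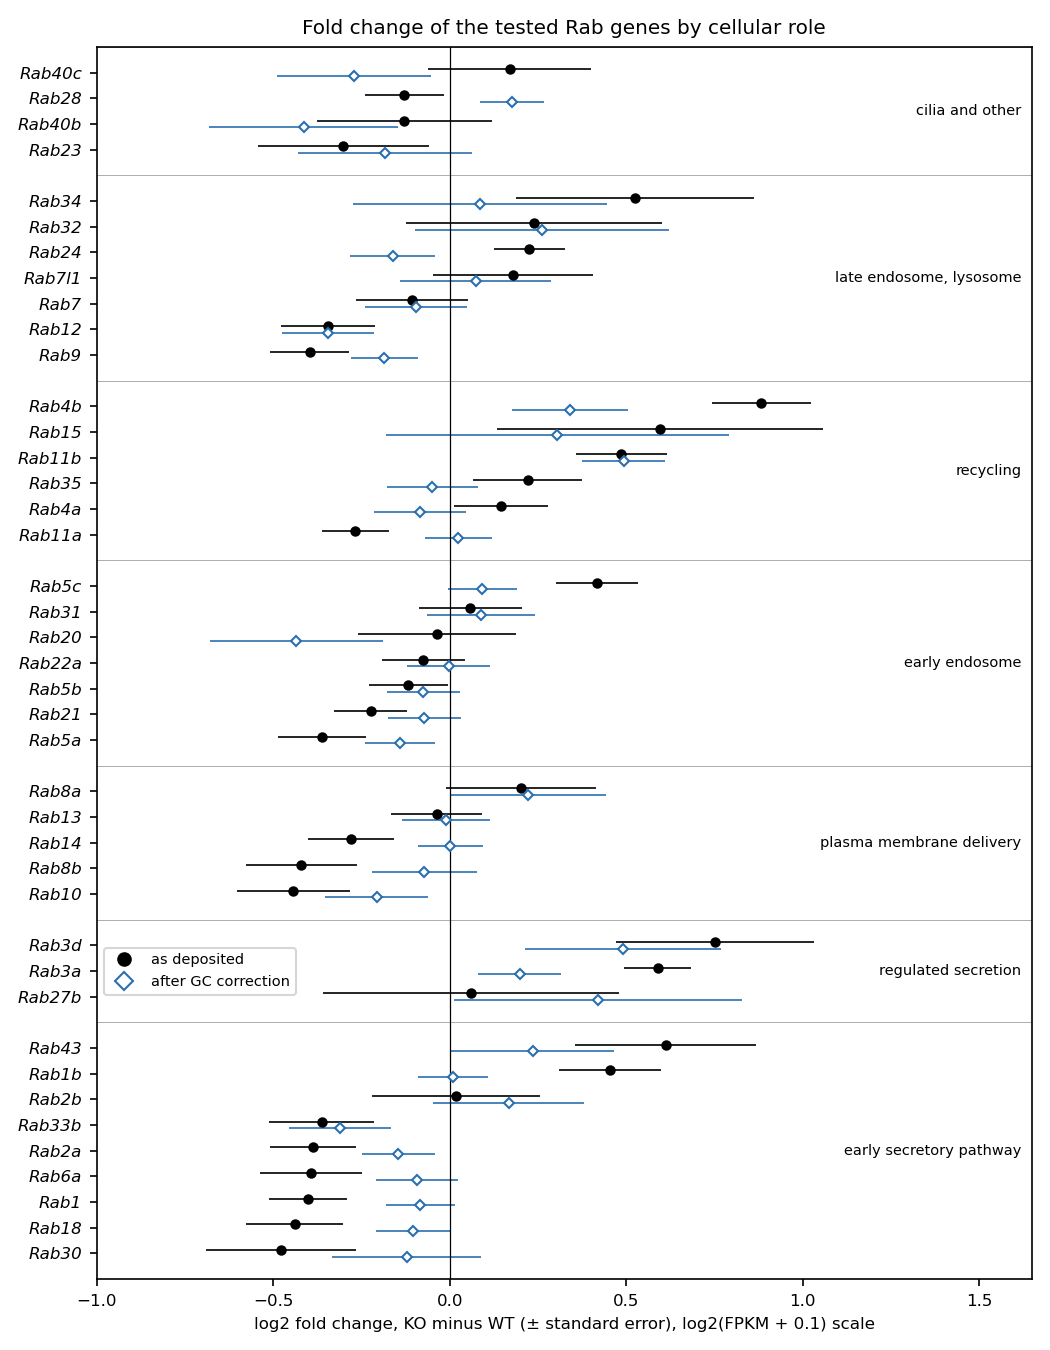
Log2 fold change (KO minus WT, log2(FPKM + 0.1) scale) of the 41 tested Rab genes grouped by cellular role, with bars of 1 standard error, as deposited (black) and after the GC correction (blue). *Rab4b* has the largest deposited value, 0.88, and moves to 0.34, while *Rab11b* stays at 0.49.

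The 16 members under the filter had means of at most 0.330 FPKM, and no single value among them exceeded 0.451 FPKM. KO values were above WT without overlap in 4 of the 15 that were above 0 (26.7%), against 5.89% of 8027 genes with a mean above 0 and under the filter. These 8027 genes were not matched to the members for level or for libraries listed at 0, so the shares are not strictly comparable. The opposite direction was not counted over these genes. These values rest on few fragments, and no test was made of them. *Rab27a* was at 0.240, 0.242 and 0.329 FPKM in WT and 0.451, 0.366 and 0.352 FPKM in KO muscle. *Rab17*, *Rab39b* and *Rab44* were at or under 0.143 FPKM in every library, which is a few fragments per kilobase at this depth. *Rab36*, *Rab39*, *Rab3b* and *Rab6b* were above 0 in every library with overlapping genotypes. *Rab3c* was listed at 0 in all libraries. *Rab25*, an epithelial relative of *Rab11*, was listed at 0 in all WT libraries and in KO replicate 7, and was at 0.423 and 0.0875 FPKM in KO replicates 1 and 8. *Rab33a* was listed at 0 except in WT replicate 7, with 0.145 FPKM. *Rab9b* was at 0.0506, 0.0127 and 0.0121 FPKM in WT, at 0.0162 FPKM in KO replicate 8, and listed at 0 in the other KO libraries. *Rab19* was at 0.102, 0.0342 and 0.0652 FPKM in WT, at 0.0362 FPKM in KO replicate 7, and listed at 0 in the other KO libraries. *Rab26* was at 0.0321, 0.0342 and 0.0407 FPKM in WT, at 0.0546 FPKM in KO replicate 8, and listed at 0 in the other KO libraries. *Rab37* and *Rab38* were listed at 0 in KO replicate 8 and were between 0.0369 and 0.195 FPKM in the other libraries.

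In 5 of 8 paralog pairs the share of the b or c paralog was higher in every KO library than in every WT library. This share was not computed over other gene pairs, so the count has no background of its own. Among single genes, 18.3% of all tested lay higher and 16.2% lower in KO without overlap. The pairs are not independent, as *Rab5a* is the partner of both *Rab5c* and *Rab5b*. Of the 5 pairs, 4 are given in full. *Rab1b* made up 29.1%, 33.4% and 37.2% of the FPKM of *Rab1* and *Rab1b* in WT and 43.5%, 51.2% and 47.4% in KO muscle. The sum of the pair was 81.9 to 91.5 FPKM in WT and 80.9 to 88.0 FPKM in KO muscle. *Rab5c* made up 33.2%, 35.7% and 39.0% of *Rab5a* and *Rab5c* in WT and 43.8%, 54.3% and 49.3% in KO muscle, where the sum was 32.8 to 35.9 and 33.4 to 34.4 FPKM. *Rab11b* made up 25.2%, 30.7% and 29.1% of *Rab11a* and *Rab11b* in WT and 38.1%, 42.5% and 39.4% in KO muscle, where the sum was 79.4 to 87.3 and 81.0 to 84.9 FPKM. These sums overlapped between the genotypes and the shares did not. *Rab4b* made up 18.1%, 17.4% and 15.4% of the *Rab4* pair in WT and 25.5%, 27.2% and 24.7% in KO muscle, and the sum was higher in KO, 13.7 to 16.9 against 11.0 to 12.7 FPKM.

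The log2 ratio of the paralogs, KO minus WT, was 0.86 ± 0.20 (SE) for *Rab1b* to *Rab1*, 0.79 ± 0.20 for *Rab5c* to *Rab5a*, 0.76 ± 0.14 for *Rab11b* to *Rab11a* and 0.77 ± 0.10 for *Rab4b* to *Rab4a*. Each gave p = 0.1 by an exact permutation test, two-sided, the smallest that 3 against 3 can give. After the GC correction the ratios were 0.09, 0.23, 0.47 and 0.43. *Rab5b* to *Rab5a* gave 0.25 ± 0.11, also without overlap, and 0.07 after the GC correction. The ratios of *Rab2b* to *Rab2a*, *Rab3d* to *Rab3a* and *Rab8b* to *Rab8a* overlapped between the genotypes (exact permutation p of 0.2, 0.6 and 0.2). These log2 ratios were 0.41, 0.21 and -0.64, and 0.31, 0.29 and -0.30 after the GC correction. Only the ratio of *Rab8b* to *Rab8a* was lower in KO.

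**Figure D4:**
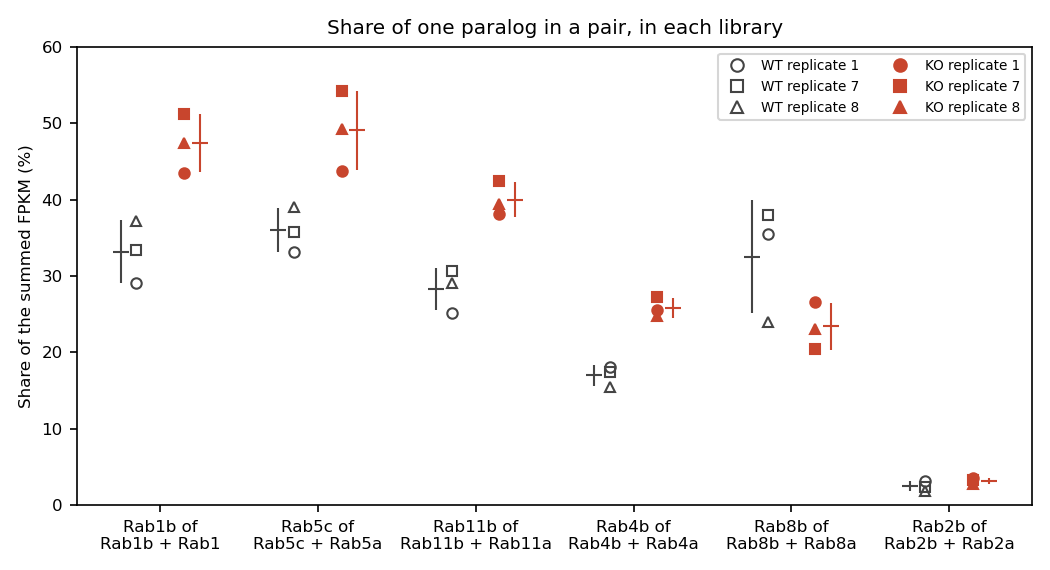
Share in percent of the summed FPKM of a pair that comes from the named paralog, in each WT (open) and KO (filled) library, with the mean and SD beside the points. The genotypes are apart for *Rab1b*, *Rab5c*, *Rab11b* and *Rab4b*, and overlap for *Rab8b* and *Rab2b*.

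Promoters of the Rab genes were searched for GC boxes, the binding motif of Sp1-type factors. In windows of 300 bases around the start of each gene (RefSeq, GRCm38.p6), found for 36 of the 41 tested members, GGGCGG on either strand was present in 27 (75.0%), against 65.1% of 8316 promoters of genes with an average of 0.5 FPKM or more and 35.9% of 27025 promoters of all genes. The median GC content of these windows was 63.3% in the members, 61.0% in the genes of that level and 52.7% in all genes. It was in 6 of the 7 higher members and in 7 of the 9 lower members with a window. The E-box CACGTG, which reads the same on the other strand, was in 5 of 36 (13.9%) against 10.7% of genes of that level and 7.24% of all. It was in 0 of the 7 higher members and in 1 of the 9 lower members with a window. The promoters of *Rab4b* (chr7:27178834-27179133, minus strand), the member of lowest unadjusted p, and of *Rab11b* (chr17:33760437-33760736, minus strand), the higher member that passed after the GC correction, are shown to compare their composition, with GC boxes in capitals.
Rab4b: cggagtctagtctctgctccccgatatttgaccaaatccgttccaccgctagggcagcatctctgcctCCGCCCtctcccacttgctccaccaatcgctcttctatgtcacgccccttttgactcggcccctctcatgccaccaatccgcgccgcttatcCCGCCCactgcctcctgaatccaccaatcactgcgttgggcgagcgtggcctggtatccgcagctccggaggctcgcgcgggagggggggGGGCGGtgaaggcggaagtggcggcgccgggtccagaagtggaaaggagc
Rab11b: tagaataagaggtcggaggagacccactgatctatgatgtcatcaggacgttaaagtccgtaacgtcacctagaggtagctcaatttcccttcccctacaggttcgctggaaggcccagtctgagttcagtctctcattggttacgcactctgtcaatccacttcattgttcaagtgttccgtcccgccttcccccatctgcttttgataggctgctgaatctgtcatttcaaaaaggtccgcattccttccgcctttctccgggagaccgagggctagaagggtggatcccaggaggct
The *Rab4b* window holds 3 GC boxes at a GC content of 64.3%, and the *Rab11b* window holds 0 at 51.3%.

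Regulators and partners of the Rabs were read from 5 lists, none of which held a gene that passed the adjusted threshold with limma. Of 32 tested exchange factors, 5 were higher and 0 lower at an unadjusted p under 0.05, with a median log2 fold change of 0.07. The higher share of 15.6% was near the 15.3% of all tested genes, and 2 were higher and 1 lower after the GC correction. *Rgp1*, part of the exchange factor of *Rab6a*, was at 4.389, 4.59 and 4.523 FPKM in WT and 7.641, 6.531 and 7.196 FPKM in KO muscle (0.65 ± 0.11, limma, adjusted p = 0.0667; 0.25 after the GC correction). *Dennd4c*, an exchange factor for *Rab10*, was at 8.859, 9.801 and 9.925 FPKM in WT and 8.119, 6.772 and 8.499 FPKM in KO muscle (-0.29 ± 0.13, adjusted p = 0.196). The genotypes overlapped in neither gene.

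Of 32 tested members of the TBC family, 4 were higher and 2 lower at an unadjusted p under 0.05, with a median of 0.05. These shares of 12.5% and 6.25% lay under those of all tested genes, 15.3% and 10.9%, and 1 was higher and 2 lower after the GC correction. *Tbc1d4*, the GTPase-activating protein that restrains GLUT4 vesicles until insulin acts, was at 4.695, 5.487 and 3.775 FPKM in WT and 3.169, 1.995 and 2.906 FPKM in KO muscle, without overlap. Its log2 fold change was -0.78 ± 0.22 (limma, adjusted p = 0.0956) and -0.84 after the GC correction. It ranged from -0.92 to -0.58 when 1 library was left out, and its call at an unadjusted p was lost without WT replicate 7 (-0.65). Its relative *Tbc1d1* was at 18.08, 15.54 and 15.73 FPKM in WT and 14.47, 14.45 and 17.76 FPKM in KO muscle, with overlap (-0.08 ± 0.13, adjusted p = 0.705). *Tbc1d17* was at 8.066, 10.08 and 9.608 FPKM in WT and 15, 15.1 and 18.61 FPKM in KO muscle (0.80 ± 0.14, adjusted p = 0.0667; 0.32 after the GC correction).

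Of 6 tested genes for escort, prenylation and GDP dissociation inhibition, 2 were higher and 2 lower (33.3% each) at an unadjusted p under 0.05. The shares over all tested genes were 15.3% and 10.9%. After the GC correction 1 was higher and 0 lower by limma, where 5.33% and 5.4% of all genes were. *Rabac1*, a Golgi protein that binds prenylated Rabs, was at 20.67, 26.63 and 36.58 FPKM in WT and 51.27, 62.08 and 52.33 FPKM in KO muscle, without overlap (1.01 ± 0.21, limma, adjusted p = 0.0700; 0.44 after the GC correction). *Chm*, which encodes a Rab escort protein that presents new Rabs for prenylation, was at 7.004, 6.661 and 7.589 FPKM in WT and 4.912, 3.448 and 5.981 FPKM in KO muscle (-0.59 ± 0.20, adjusted p = 0.130; -0.16 after the GC correction). The call for *Chm* at an unadjusted p was lost without WT replicate 1 (-0.60), 7 (-0.63) or 8 (-0.54), and its value was -0.38 without KO replicate 7. Of 35 tested effectors, 2 (5.71%) were higher and 4 (11.4%) lower, against 15.3% and 10.9% of all tested genes, and 0 were higher and 3 lower by limma after the GC correction. *Zfyve27*, which binds *Rab11* proteins, was the highest-ranked above WT (0.57 ± 0.16, adjusted p = 0.0950; 0.31 after the GC correction), and *Appl1*, a *Rab5* effector, below it (-0.42 ± 0.12, adjusted p = 0.0981; -0.07 after the GC correction). Of 8 tested GLUT4 vesicle genes, 3 (37.5%) were higher and 0 lower by limma, against 15.3% and 10.9% of all tested genes. The median GC content of the list was 54.5%, against 50.1% over all tested genes. After the GC correction 1 GLUT4 vesicle gene was higher, where 5.33% of all genes were. *Myo1c*, a motor of these vesicles, was at 6.128, 6.348 and 7.381 FPKM in WT and 10.42, 13.16 and 10.27 FPKM in KO muscle (0.76 ± 0.14, adjusted p = 0.0667; 0.40 after the GC correction). *Lnpep*, the aminopeptidase that travels with GLUT4, had -0.53 ± 0.28 with overlap (adjusted p = 0.259). *Slc2a4*, which encodes GLUT4 and was chosen after its values were seen, was at 142.7, 182.9 and 193.7 FPKM in WT and 236.3, 219.4 and 249.4 FPKM in KO muscle (0.45 ± 0.14, adjusted p = 0.109; 0.08 after the GC correction). Its call at an unadjusted p was lost without KO replicate 8 (0.41).

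**Figure D5:**
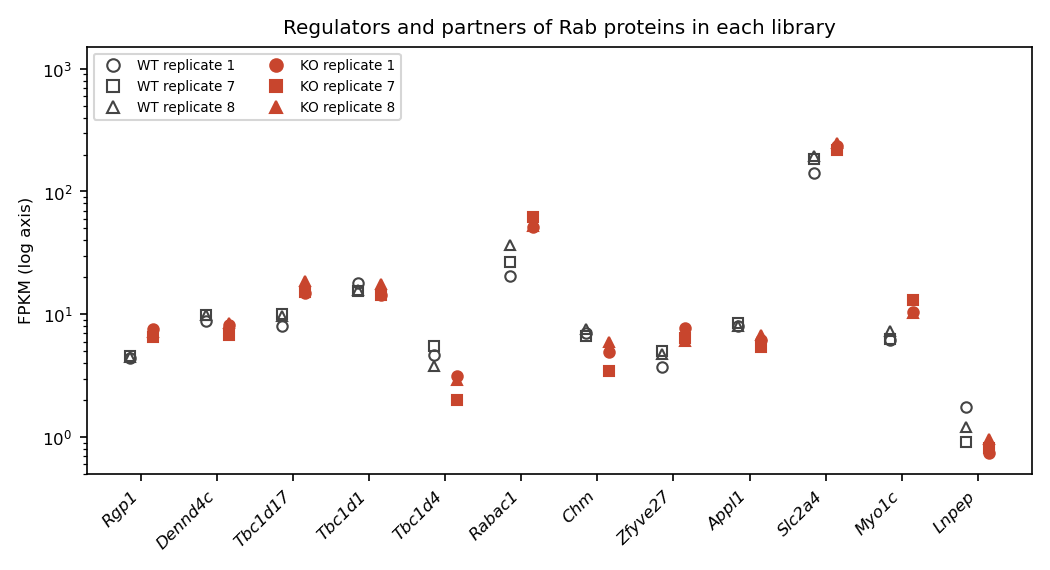
FPKM (log axis) of 12 regulators and partners of Rab proteins in each WT (open) and KO (filled) library. *Rabac1* and *Myo1c* lie higher in every KO library and *Tbc1d4* lower, while *Tbc1d1* and *Lnpep* overlap between the genotypes.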

How the data were processed

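Total RNA of 6 GAS muscles was sequenced with a stranded mRNA kit. The authors mapped reads to GRCm38 with TopHat and deposited Cufflinks FPKM per gene, without counts. Versions, the annotation release and the strand setting are not given in the sources used here. The members, roles and gene lists were chosen with earlier results of these data known.

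The 12334 genes averaging 0.5 FPKM or more were tested as KO minus WT. The test was limma (version 3.58.1, R 4.3.3), run on log2(FPKM + 0.1) with a variance trend, and p-values were adjusted by Benjamini-Hochberg over all of them. Fold changes on this scale understate the change of low genes. With 3 libraries per genotype an exact permutation p cannot go below 0.1. GC content and coordinates came from GENCODE vM21, in which all 57 members were found, and GC content was known for 11985 tested genes. For the GC correction, the deviation of each gene in a library from that gene's mean over the libraries was taken. A loess curve (span 0.3) of these deviations on GC content was subtracted from each library. Depth was estimated from low FPKM values, of which 90.9% to 95.6% per library were whole fragments within 0.15. No pair of libraries shared more than 1 of 14983 values, so none was a copy of another. Each was counted as a replicate because the paper gives 3 mice per group. The scripts were tested on simulated data.

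Values per library are given for members at an unadjusted p under 0.05, without overlap, among the 5 highest, tied to GLUT4 or listed at 0 in some libraries. *Rab5b*, *Rab4a* and *Rab27a* were added after their values were seen. From each regulator list the gene of lowest p in each direction is named, with *Tbc1d1* and *Tbc1d4*. The alternatives covered the pseudocount, filter, scaling, variance model, array weights, replicate block, GC content, length, shared symbols, genes at 0 and leaving out each library. Plots used Python 3.11.15 and matplotlib 3.10.9.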

Additional observations from a re-analysis of the deposited data

How the results depend on the processing

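The count of members at an adjusted p under 0.05 was 18 with limma array weights and 0 under every other alternative run. Members higher at an unadjusted p numbered 1 with the GC correction, 1 with the replicate block and GC correction, and 4 with the coding-sequence GC correction, and ranged from 5 to 8 when 1 library was left out. Members lower numbered 7 with the replicate block, 1 with the GC correction, 1 with both, and 2 with the coding-sequence GC correction, and ranged from 6 (without WT replicate 7) to 10 when 1 library was left out. Deviations from the group mean were not shared by WT and KO libraries of the same number (correlations of -0.03, -0.08 and 0.03). Libraries of unlike number gave -0.07 to 0.09. The labels do not say whether the numbers pair mice, and these correlations cannot decide it. The median log2 fold change of the members was -0.13 with median scaling, -0.11 with quantile normalization and -0.18 with the length correction, and ranged from -0.12 (without WT replicate 1) to -0.018 (without KO replicate 7). Over all genes, 1891 were higher and 1339 lower at an unadjusted p, but 1395 and 2114 with median scaling, 1615 and 1807 with quantile normalization and 1438 and 1993 with the length correction. They numbered 1754 and 1030 with the replicate block, 639 and 647 with the GC correction, and 551 and 580 with both. When 1 library was left out, the higher ranged from 1392 to 1917 and the lower from 791 (without WT replicate 7) to 1343. Genes at an adjusted p under 0.05 numbered 40, but 3147 with array weights, 13 with the replicate block, 14 with the GC correction, 12 with both, 5 with the coding-sequence GC correction, 11 with a pseudocount of 1, 20 without the filter, 24 and 18 with median and quantile scaling, 19 without the variance trend, 19 with the length correction, 1 without genes at 0, and 11 to 38 when 1 library was left out.

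*Rab11a* turned to 0.03 (0.025) with the GC correction and with the replicate block and GC correction, to 0.032 with the coding-sequence GC correction, and to 0.01 to 0.09 with the GC correction without KO replicate 1 (0.037), 7 (0.024) or 8 (0.014) or WT replicate 8 (0.090). With the GC correction *Rab1b* turned to -0.004 without KO replicate 1, -0.052 without WT replicate 1 and -0.002 without WT replicate 7, *Rab6a* to 0.016 and *Chm* to 0.004 without KO replicate 7. The cause was not tested. The paralog ratios were recomputed with the GC correction and with each library left out. The log2 ratio of *Rab3d* to *Rab3a*, 0.21 over all libraries, ranged from -0.02 without KO replicate 7 to 0.53 without KO replicate 1, and that of *Rab2b* to *Rab2a*, 0.41 over all, from 0.24 without WT replicate 8 to 0.60 without WT replicate 1. Depth limits the members below about 0.1 FPKM, which rest on few fragments.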
